A study of Caenorhabditis elegans with 3 samples.

Results

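The heterochronic genes of Caenorhabditis elegans time the cell divisions and fates of the larval stages. The 10 genes described here are lin-14, lin-66, ain-1, lin-28, lin-41, lin-42, hbl-1, lin-29, daf-12 and lin-46, all matched in the annotation, out of 19973 protein-coding genes of the nuclear genome. They were chosen by name, with earlier peak results of the same data known, so their counts and signals are given as a description without tests. Binding of the chromatin protein EGL-27 was mapped by chromatin immunoprecipitation and sequencing (ChIP-seq) in 1 group of 3 libraries, labelled biological replicates 1, 2 and 4. The animals were whole L4 larvae, the last larval stage, of mixed sex, from strain OP177 (unc-119(ed3) III; wgIs177). All libraries came from this 1 transgenic line, in which EGL-27 carries GFP and FLAG at its C-terminus in an unc-119 mutant background. No second condition exists, and a possible control named in the labels was not analysed here. Whole animals were used, so binding in few cells and weak binding in many cells cannot be told apart.

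In this pathway, proteins that specify early larval fates are switched off in turn by small regulatory RNAs, and later factors start the adult programme. LIN-14 and LIN-28 act early, HBL-1 and the nuclear receptor DAF-12 in the middle stages, and LIN-41 and LIN-29 at the passage from the L4 stage to the adult. EGL-27 is related to the MTA proteins of the NuRD complex, which deacetylates histones and remodels nucleosomes.

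A peak was counted at a gene when its summit lay in the gene body or within 2000 bp of one of the gene's transcript starts, on genome build ce11 (WBcel235). The reproducible list holds the 102 peaks that passed the authors' irreproducible discovery rate (IDR) procedure, which keeps peaks that rank alike across lists. These are also the 102 highest signals of the pooled list, which holds 30000 entries and by its deposited description includes background. The 3 library lists hold 9666, 13686 and 6636 peaks for replicates 1, 2 and 4. The signal of an entry is the authors' value on a scale that the sources used here do not name, and values were compared only within a list. Sequencing depth is unknown, because no read counts were used.

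Reproducible peaks lay at 3 of the 10 heterochronic genes, ain-1, lin-66 and lin-14, where 0.566% of all protein-coding genes (113 of 19973) had one by the same rule. The peak at ain-1, which encodes a GW182-family protein of the microRNA-induced silencing complex, was the highest, with a pooled signal of 30.4 (rank 18 of 102). The peak at lin-66, which acts upstream of lin-28 in larval timing, had a signal of 24.1 (rank 42). At lin-14, which encodes a nuclear protein specifying first-stage fates and is silenced by the microRNA lin-4, the peak had a signal of 20.2 (rank 82). The lowest reproducible signal was 18.7. The highest entries of heterochronic genes outside the list were a second ain-1 entry at 16.0 (pooled rank 187) and an intron entry of lin-42 at 15.2 (pooled rank 241). These genes were chosen with such peaks in view, and nothing is read from the count.

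**Figure D1:**
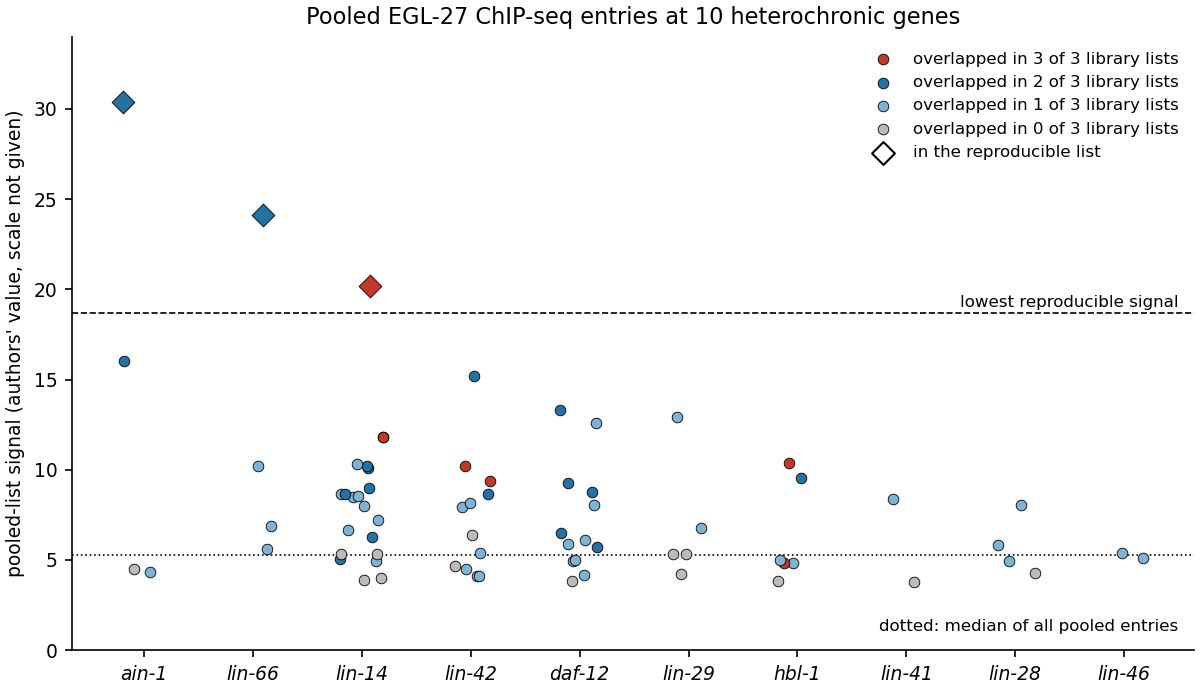
Signal of each of the 73 pooled-list entries (y axis, authors' value, scale not given) at the 10 heterochronic genes (x axis, in order of their highest signal). Each point is 1 entry, its colour gives how many of the 3 library lists overlap it by 1 bp or more, and diamonds are reproducible peaks. The 3 diamonds stand at 30.4 (ain-1), 24.1 (lin-66) and 20.2 (lin-14), above the dashed line at 18.7; the dotted line is the median of all pooled entries, 5.25.

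The genome sequence under the summits that carry these signals is shown for 100 bp to each side, in the direction of transcription of the gene, with the first 3 lines for the reproducible peaks and the others for the next highest entries. Bases are from the RefSeq WBcel235 assembly. Capitals mark matches, on either strand, to any of the 4 motifs searched. These were the purine repeat GAGAGA, the GATA-factor core GATAA, the palindrome CACGTG (an E-box) and the GC-rich box GGGCGG.
ain-1 reproducible peak (chrX:16612308-16612508, plus strand): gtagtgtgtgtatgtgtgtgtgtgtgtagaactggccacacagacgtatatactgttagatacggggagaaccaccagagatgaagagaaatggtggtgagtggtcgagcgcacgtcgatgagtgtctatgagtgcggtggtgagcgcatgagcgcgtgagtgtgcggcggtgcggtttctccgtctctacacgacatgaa
lin-66 reproducible peak (chrIV:13887592-13887792, plus strand): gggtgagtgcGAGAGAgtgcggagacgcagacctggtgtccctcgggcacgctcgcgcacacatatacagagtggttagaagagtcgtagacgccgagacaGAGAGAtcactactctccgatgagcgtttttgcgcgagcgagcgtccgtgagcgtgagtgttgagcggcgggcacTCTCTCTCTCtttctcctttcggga
lin-14 reproducible peak (chrX:11481698-11481898, plus strand): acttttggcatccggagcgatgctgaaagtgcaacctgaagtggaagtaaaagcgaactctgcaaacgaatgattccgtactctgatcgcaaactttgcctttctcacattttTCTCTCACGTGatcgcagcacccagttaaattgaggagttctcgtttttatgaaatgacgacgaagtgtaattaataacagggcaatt
ain-1 second entry (chrX:16612585-16612785, plus strand): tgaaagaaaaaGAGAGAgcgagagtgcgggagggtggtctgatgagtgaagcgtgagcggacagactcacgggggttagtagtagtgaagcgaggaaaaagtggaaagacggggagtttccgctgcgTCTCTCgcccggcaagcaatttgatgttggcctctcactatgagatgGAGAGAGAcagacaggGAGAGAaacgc
lin-42 intron entry (chrII:1237986-1238186, minus strand): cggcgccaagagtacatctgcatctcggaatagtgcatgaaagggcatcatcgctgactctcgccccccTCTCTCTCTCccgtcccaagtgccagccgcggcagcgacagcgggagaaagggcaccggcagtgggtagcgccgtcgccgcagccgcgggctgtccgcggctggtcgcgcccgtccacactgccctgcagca

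The lin-66 window held 3 separate GAGAGA matches and the lin-14 window held 1, which shares a base with a CACGTG match. The ain-1 reproducible window held none of the 4 motifs, while the overlapping ain-1 entry, with its summit 766 bp upstream, held 4 GAGAGA matches. GATAA was in 0 of the 3 reproducible windows, against 32.4% of all 102, GGGCGG in 0, against 11.8%, and CACGTG in 1, against 12.7%. With 3 windows, nothing is read from these counts. GC content was 53.2% (ain-1), 59.2% (lin-66) and 42.3% (lin-14), beside a median of 46.5% over all 102 reproducible windows and 35.8% over all pooled windows.

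Across all 73 pooled entries at the 10 genes, GAGAGA lay within 100 bp of 15 summits (20.5%), where 14.2% of all 30000 pooled summits had it and 46.1% of the reproducible ones. GATAA was found at 30 entries (41.1%), against 38.4% of all pooled summits. CACGTG was found at 2 entries (2.74%), against 3.9% of all pooled summits, and likewise GGGCGG at 2 (2.74%), against 3.78%. A match is a description of letters and not evidence of a bound site.

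The ain-1 peak (X, 16612193 to 16612622) lay upstream of the gene, with its summit 1043 bp from the single annotated start. It was overlapped in replicate 1 by a peak at a signal of 12.1 (rank 4 of 9666) and in replicate 2 by 2 peaks, the higher at 11.2 (rank 108 of 13686). In replicate 4 no peak overlapped it, and the nearest summit was 829 bp away. The ain-1 peak was near the top of the lists of replicates 1 and 2 and missing from that of replicate 4. The summits of replicates 1 and 2 lay 46 and 34 bp from the pooled one.

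The lin-66 peak (IV, 13887477 to 13887906) lay 387 bp upstream of the first annotated start. Replicate 2 had it at a signal of 15.6 (rank 40 of 13686) and replicate 4 at 2.64 (rank 3735 of 6636). Replicate 1 had no overlapping peak there. Its nearest summit lay 677 bp away, and it listed another peak in an intron of lin-66, 565 bp downstream of the start, at 5.91 (rank 199). The lin-66 peak ranked high in replicate 2 and in the lower part of the list of replicate 4. The nearest start of any other annotated gene was that of the piRNA gene 21ur-3387, 729 bp from the summit.

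The lin-14 peak (X, 11481583 to 11482012) lay in an intron of 0.904 kb (X, 11481640 to 11482543), which is intron 5 of the transcript T25C12.1a.1 and intron 3 of the shorter T25C12.1b.1. Its summit was 16238 bp from the upstream start and 1437 bp downstream of the start of the shorter transcript. It had a partner in each library, at a signal of 2.35 in replicate 1 (rank 7679), 11.2 in replicate 2 (rank 109) and 4.37 in replicate 4 (rank 722). It was the only one of the 3 reproducible peaks with a partner in all 3 library lists, although its partner in replicate 1 stood low in that list. The partners' summits lay 57 to 78 bp from the pooled summit. None of these partners was the highest lin-14 peak of its library. In replicate 1 that peak (5.47, rank 302) lay 14044 bp from the upstream start and 757 bp before the shorter transcript's start. The highest peak lay 4520 bp from the upstream start in replicate 2 (11.5, rank 100) and 22 bp in replicate 4 (4.72, rank 508). In the ce10 reproducible list of 70 entries, entries with the signals of ain-1 and lin-66 were found on the same chromosomes. None matched lin-14, whose signal is below the lowest of that list, 21.0.

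For each of these 3 peaks the nearest transcript start belonged to the heterochronic gene itself. The nearest start of another protein-coding gene was 2884 bp away at ain-1 (F59C12.3), 3722 bp at lin-66 (thoc-7) and 5986 bp at lin-14 (spp-9).

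**Figure D2:**
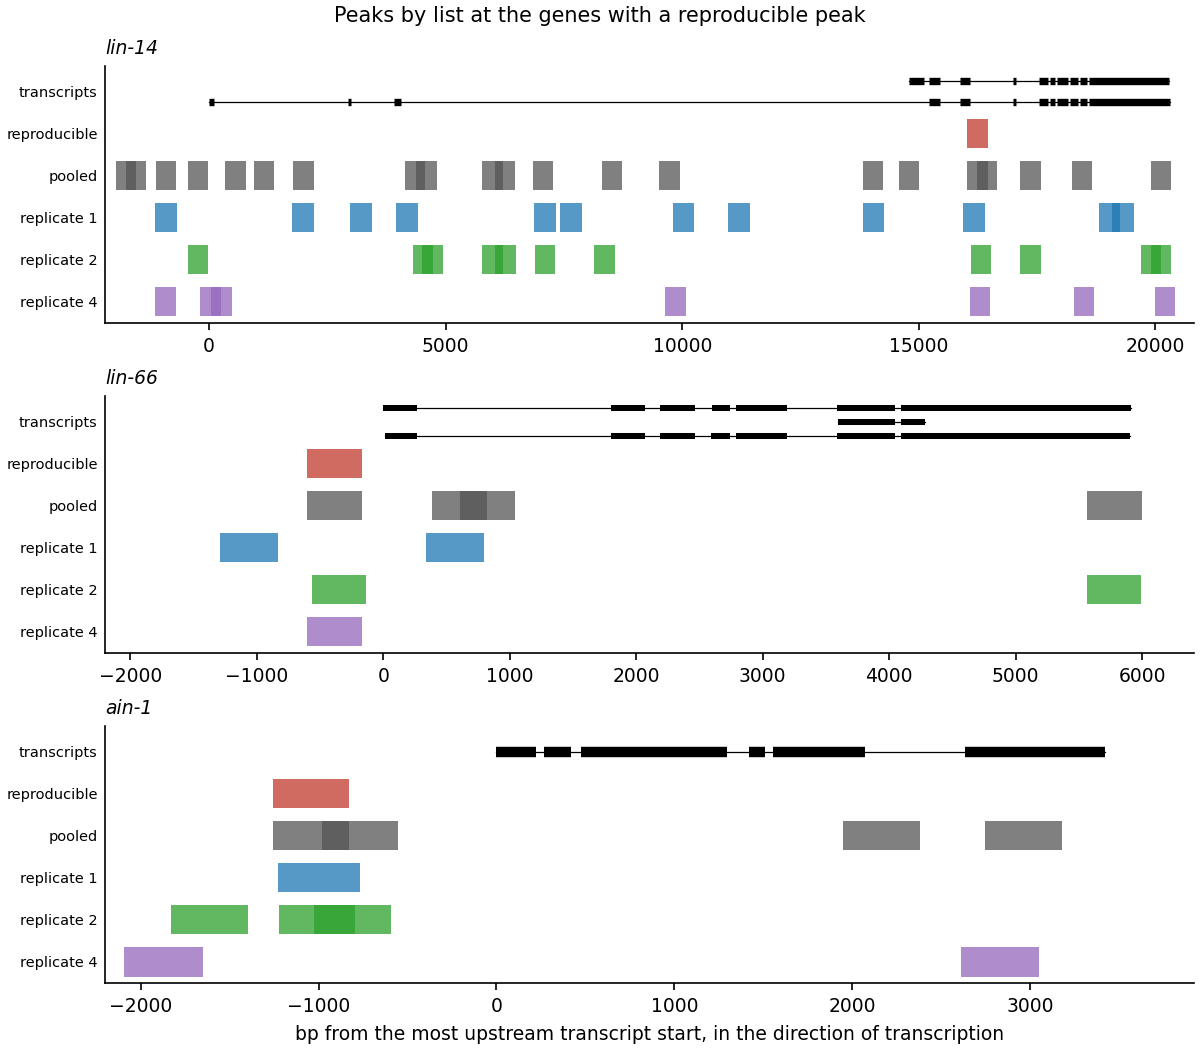
Position of every peak at lin-14, lin-66 and ain-1 in the reproducible, pooled and 3 library lists (rows), against distance in bp from the most upstream transcript start (x axis). Boxes are peaks at their full width, darker where they overlap, and black bars are exons of the annotated transcripts. The reproducible box at lin-14 has boxes of all 3 libraries beneath it, while at lin-66 replicate 1 and at ain-1 replicate 4 have none there.

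At lin-14 the pooled entries were unevenly spread, with no summit between 1992 and 4353 bp or between 9728 and 14035 bp from the upstream start. The search region of 22.3 kb held 21 pooled entries, or 0.941 per kb, against 0.314 per kb over the X chromosome. More pooled entries were found at 4 of the 19973 protein-coding genes. Per kb it ranked 4 of the 1015 genes with a search region over 12 kb, whose median was 0.301 per kb. The signals ran from 3.91 to 20.2 with a median of 8.5. Entries overlapping each other were merged into 17 sites, of which 7 were seen in 2 or more libraries. Other sites lay 918 bp upstream of the first start (pooled 10.2, replicate 1 at 2.31 and replicate 4 at 3.53) and in intron 3 of T25C12.1a.1, 4353 bp from the start (pooled 11.8, replicate 1 at 2.6 and replicate 2 at 11.5). Each of these had no partner in the remaining library.

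Every one of the 10 genes had at least 1 pooled entry, but so did 77.3% of protein-coding genes, and the search regions of the 10 ran from 4.0 to 33.0 kb. In all, 73 pooled entries fell in 136.5 kb, or 0.535 per kb, against 0.299 per kb over the nuclear genome. The genes differed, from 0.206 per kb at lin-41 to 0.941 at lin-14, and lin-14 alone held 21 of the 73 entries. Introns held 43 of the 73 summits (58.9%), where introns make up 60.8% of the bases searched. Upstream sequence held 13 (17.8% of entries, 14.6% of bases), coding exons 9 (12.3%, 14.7%), 3' untranslated regions 7 (9.59%, 7.53%) and 5' untranslated regions 1. Of the 73 entries, 7 also counted for another protein-coding gene, 3 at lin-28, 2 at lin-29 and 2 at lin-46. Noncoding genes are not in this count. Each of the 4 lin-66 entries also lay within reach of several piRNA genes, and entries at lin-14 and lin-42 of other noncoding genes.

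**Figure D3:**
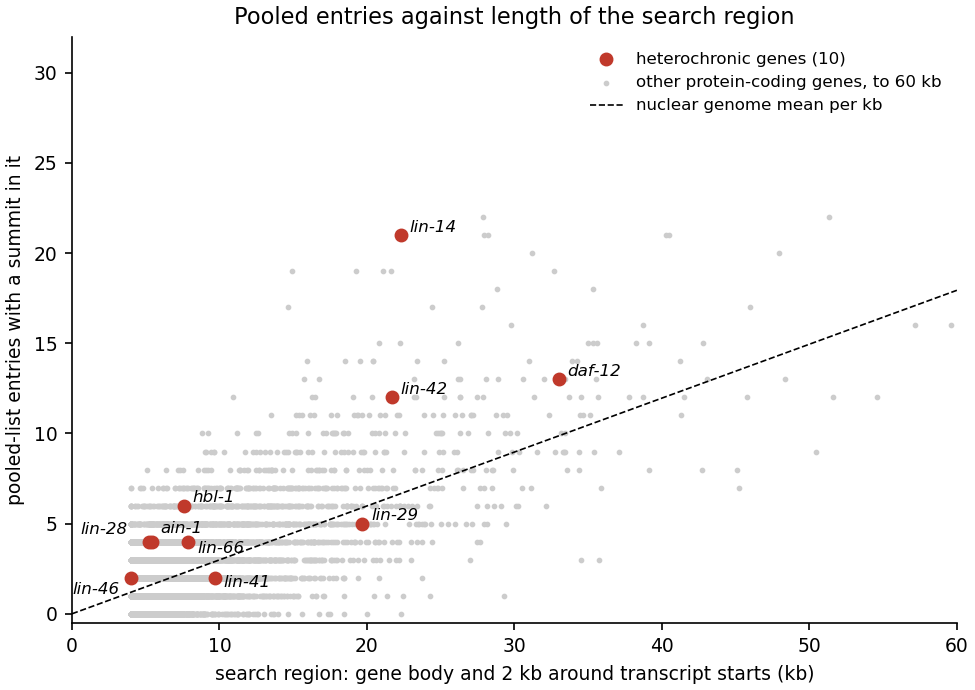
Number of pooled-list entries with a summit in the search region (y axis) against the length of that region in kb (x axis), for the 10 heterochronic genes (red) and other protein-coding genes up to 60 kb (grey); the dashed line is the nuclear genome's mean of 0.299 per kb. lin-14 stands at 21 entries in 22.3 kb, while lin-29 (5 in 19.7 kb) and lin-41 (2 in 9.7 kb) lie under the line.

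Among the genes without a reproducible peak, lin-42, the worm relative of the clock gene Period, had 12 pooled entries in 21.7 kb (0.552 per kb). Its highest entry (II, 1237871 to 1238300, pooled 15.2, rank 241 of 30000) lay in introns of 3 transcripts and 1117 bp upstream of an internal start. There replicate 2 had a signal of 4.77 (rank 4177) and replicate 4 of 3.06 (rank 2449), and replicate 1 had no partner. Another lin-42 site was seen in all 3 libraries, in the first intron of the 2 transcripts that begin furthest upstream, 5192 to 5484 bp from the start. It consists of overlapping pooled entries at 10.2 and 9.36, with 2.72 in replicate 1, 5.12 in replicate 2 and 4.46 in replicate 4, and the library summits spanned 238 bp.

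hbl-1, which encodes a zinc finger protein related to fly Hunchback and a target of the let-7 family of microRNAs, had 6 pooled entries in 7.6 kb (0.788 per kb). A site at its 3' end was seen in all 3 libraries, across the last coding exon and the 3' untranslated region. The overlapping pooled entries had signals of 10.4 and 4.82, with 2.38 in replicate 1 (rank 7503), 4.93 in replicate 2 (rank 3737) and 2.28 in replicate 4 (rank 5222). The partners stood 77.6%, 27.3% and 78.7% of the way down the lists of replicates 1, 2 and 4. A second hbl-1 entry, in a coding exon 313 bp downstream of the internal start, had a pooled signal of 9.53 and partners in replicate 1 (2.92) and replicate 2 (5.04).

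daf-12, the gene of the steroid receptor that links larval timing to hormone signals and dauer entry, had 13 pooled entries in 33.0 kb (0.394 per kb). The highest (X, 10639383 to 10639812, 13.3, rank 413) lay in the first intron of its longest transcript, with partners in replicate 2 (6.76) and replicate 4 (2.35). No daf-12 entry was seen in all 3 libraries. The highest daf-12 peak of each library lay at a different place: 22351 bp from the upstream start in replicate 1 (5.76, rank 221), 3664 bp in replicate 2 (6.76, rank 970) and 1965 bp in replicate 4 (5.6, rank 259).

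**Figure D4:**
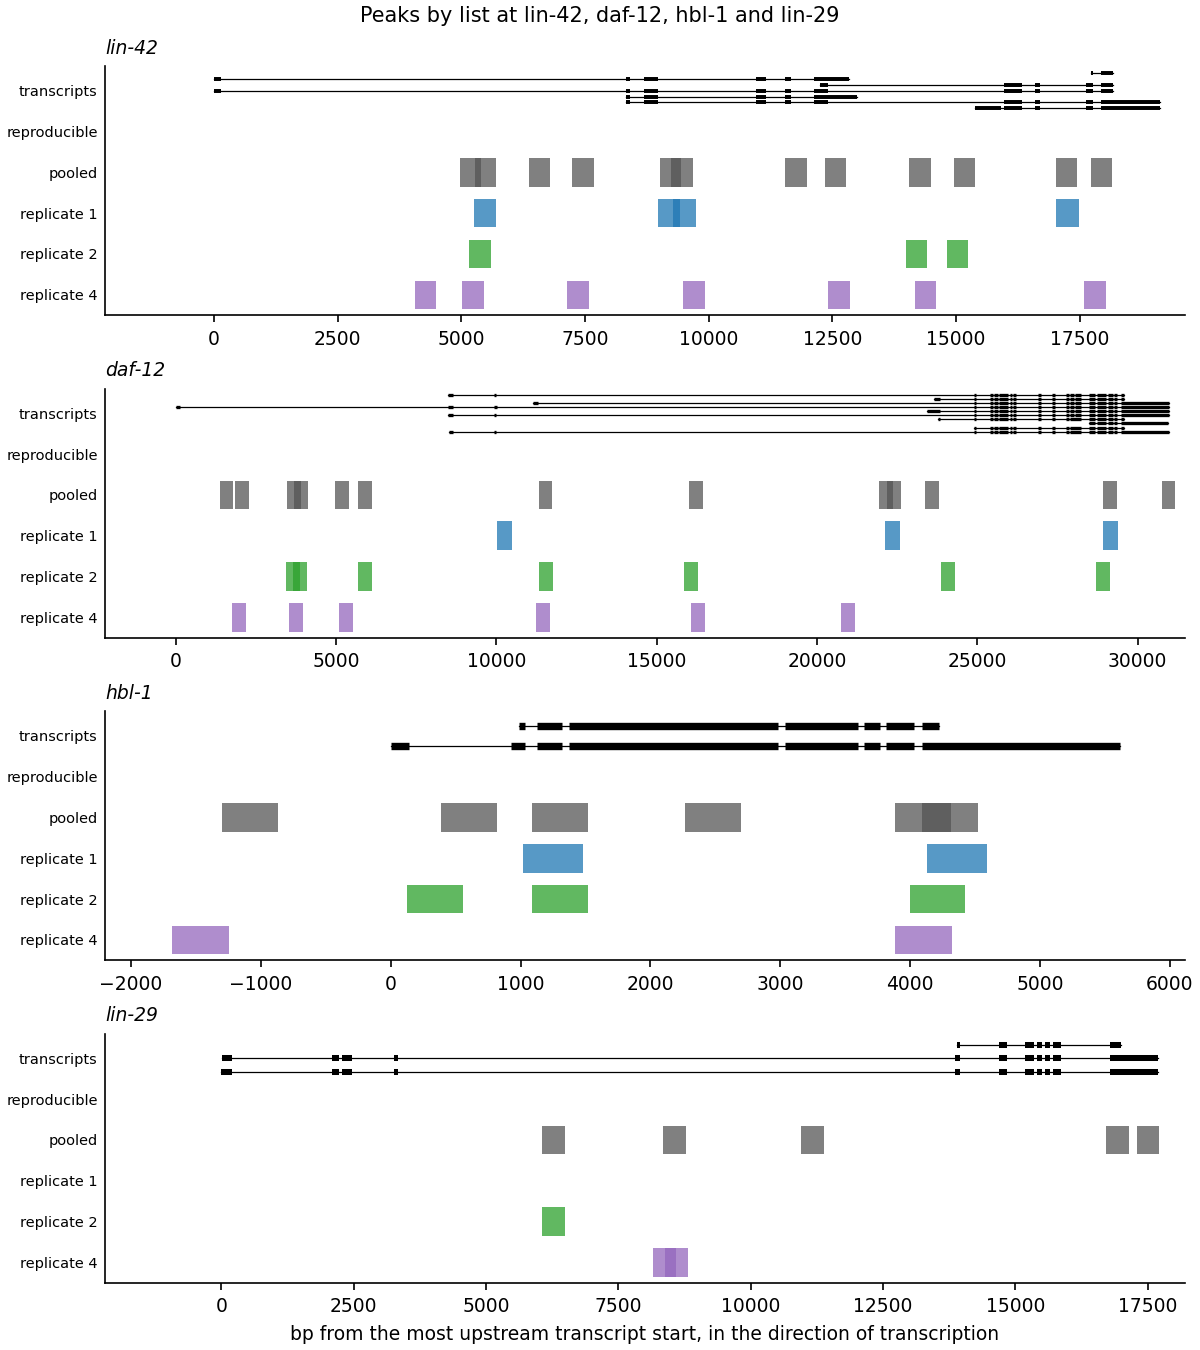
Position of every peak at lin-42, daf-12, hbl-1 and lin-29 by list (rows), against distance in bp from the most upstream transcript start (x axis); boxes are peaks at full width and black bars are exons. No box appears in the reproducible row of any of the 4 genes, and boxes of all 3 libraries line up at 1 site each of lin-42 and hbl-1.

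No pooled entry at the late regulators lin-29 and lin-41 was overlapped by more than 1 library. lin-29, the zinc finger factor that ends seam cell division at adulthood, had 5 pooled entries in 19.7 kb (0.254 per kb, under the genome's mean). Its highest entry (II, 11928853 to 11929282, 12.9, rank 469) lay in an intron and was in the list of replicate 2 alone (6.99, rank 858). In replicate 4 the highest lin-29 peak lay at another place, at 5.07 (rank 382), and replicate 1 had none. lin-41, a TRIM-NHL RNA-binding protein gene and target of let-7, had 2 pooled entries, the higher at 8.36 and 1540 bp upstream. Of the libraries, replicate 4 alone had lin-41 peaks, at 3.53 and 3.34.

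Of the remaining genes, lin-28, whose RNA-binding protein blocks let-7 processing, had 4 pooled entries with signals of 4.3 to 8.02. Each library had 1 peak at lin-28, at 2.1 in replicate 1, 4.59 in replicate 2 and 2.67 in replicate 4. These lay at 3 different places, 312 bp upstream, 926 bp upstream and 1219 bp into the gene, so no lin-28 entry was overlapped by more than 1 library. lin-46, which encodes a gephyrin-like protein that acts downstream of lin-28, had 2 overlapping pooled entries of 5.11 and 5.4, both near the pooled median of 5.25. Its only library peak was in replicate 1, at 4.41 (rank 839), and these entries also lay within reach of the protein-coding genes srd-35, R186.3 and R186.8.

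By library, peaks were found at 8 of the 10 genes in replicate 1, at 8 in replicate 2 and at 9 in replicate 4. The shares of all protein-coding genes were 39.9%, 49.9% and 28.7% in the same order. Peaks in 2 or more library lists were found at 8 heterochronic genes, against 35.8% of all protein-coding genes, and in all 3 lists at 7, against 10.8%. The genes missing from the last count were lin-29, lin-41 and lin-46. Long genes meet this more often: with a search region over 12 kb, 3 of the 4 heterochronic genes had a peak in all 3 lists, against 49.3% of the 1015 protein-coding genes of that size. From 6 to 12 kb it was 2 of 3 heterochronic genes, against 18.1% of 3587 genes. Below 6 kb it was 2 of 3, against 6.56% of 15371 genes. For peaks in 2 or more lists, the 4 heterochronic genes over 12 kb all had them, against 83.1% of genes of that size. From 6 to 12 kb it was 2 of 3, against 54.8%, and below 6 kb 2 of 3, against 28.2%.

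A stricter count asks for the same place in all 3 libraries. A pooled entry overlapped in all 3 lists was found at 3 of the 10 genes, lin-14, lin-42 and hbl-1, against 2.73% of protein-coding genes. With a search region over 12 kb it was 2 of 4 heterochronic genes, against 8.18% of protein-coding genes of that size, from 6 to 12 kb 1 of 3, against 3.43%, and below 6 kb 0 of 3, against 2.21%. Of the 73 pooled entries at the 10 genes, 6 (8.22%) were overlapped in all 3 lists, against 2.15% of all pooled entries, and 24 (32.9%) in 2 or more, against 14.8%. The 6 entries are overlapping pairs at 3 sites, so they are not independent. The 24 entries also include overlapping ones. With overlapping entries merged, the 10 genes had 61 sites, 18 of them in 2 or more libraries. No such share of merged sites was computed for all pooled entries. Replicate 1 overlapped 27 of the 73 entries, and replicates 2 and 4 overlapped 31 each. An entry among the 1000 highest pooled signals was found at 6 of the 10 genes (ain-1, lin-66, lin-14, lin-42, daf-12 and lin-29), against 5.34% of protein-coding genes. Among those over 12 kb, the 4 heterochronic genes all had one, against 14.4%. From 6 to 12 kb it was 1 of 3, against 7.47%, and below 6 kb 1 of 3, against 4.25%. The reproducible peaks are part of these 1000 entries, so this count is not separate from theirs.

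A wider list of 27 timing and microRNA genes was examined in the same way, of which 26 matched the annotation by name, and let-7 was not analysed here. Reproducible peaks lay at 2 of the 26, 1 microRNA gene and 1 protein-coding gene. The share of 0.566% given above covers protein-coding genes alone, and no share over microRNA genes was computed. The 2 genes were mir-241, a let-7 family microRNA gene (pooled 23.9, 362 bp upstream, with 12.5 in replicate 2 and 9.01 in replicate 4), and nhl-2, a TRIM-NHL cofactor of microRNA silencing. The nhl-2 peak (III, 4899702 to 4900131, pooled 24.2) lay 832 bp upstream and had 4.82 in replicate 1, 7.29 in replicate 2 and 9.14 in replicate 4. Of the 9 microRNA machinery genes 2 had peaks in all 3 library lists, nhl-2 and the helicase gene cgh-1 (pooled 11.1). Of the 13 other timing regulators 6 did: kin-20, a casein kinase gene (14.0), mab-10, a cofactor of LIN-29 (14.2), din-1, a cofactor of DAF-12 (15.7), puf-9, a Pumilio-family gene (18.4), dre-1, an F-box gene (9.92), and sea-2 (10.1). The values in brackets are the highest pooled signals, whether or not that entry was seen in all 3 libraries. The highest entry had a partner in replicate 2 alone at dre-1 and in replicate 1 alone at sea-2. At cgh-1 it had none in replicate 2. An entry overlapped in all 3 lists was found at 4 of the 13 and 2 of the 9, against 2.73% of protein-coding genes. Neither dre-1 nor sea-2 had such an entry. The share of all protein-coding genes with peaks in all 3 lists was the 10.8% given above, not matched for length. At puf-9 the entry 272 bp upstream had rank 110 of the pooled list, just below the reproducible peaks, and partners in all 3 libraries at 4.56, 4.93 and 6.17 in replicates 1, 2 and 4.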

How the data were processed

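Peak lists on ce11 were used as deposited: per the deposited README texts each library's list came from its own alignment and a control, the pooled list from the 3 alignments together, and the reproducible list from these by IDR. The authors' deposited signal ranks entries within a list. The q column deposited by the authors holds values under 0 in the pooled list, so it was treated as a score, in 1 alternative. Which aligner, caller or IDR threshold was applied is not stated in the labels or README texts. The members and gene lists were chosen with earlier results of these data known.

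Genes came from Ensembl release 115 (46926 genes, 19973 nuclear protein-coding), sequence from RefSeq WBcel235; all ce11 peaks ended inside its chromosomes. Lists shared 2 to 11 identical summits, so each library counted as 1 sample. Peaks were matched by an overlap of 1 bp, with Python 3.11.15 and pandas 2.3.3. The assignment was tested on planted peaks. Length classes were set after seeing the data. Named genes were the members, the nearest genes of their reproducible peaks and, of the 27 listed, those with a reproducible peak or peaks in all 3 library lists; further neighbours were named after their values were seen.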

Additional observations from a re-analysis of the deposited data

How the results depend on the processing

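Of 43 alternative counts, 35 stayed within 1.5 times the reported count. With each library list cut to its 1000 highest signals, 5 genes had peaks in 2 or more lists (8 in the complete lists), 2 genes, lin-14 and daf-12, in all 3 (7 in the complete lists), and 0 of the reproducible peaks at these genes had partners in all 3 (1 in the complete lists). At both lin-14 and daf-12 the highest peaks of the 3 libraries lay at different places. With the 1000 highest pooled signals, a setting added after seeing the data, 6 genes had an entry in place of 10. Leaving out each replicate in turn gave 7 to 8 genes in both other lists and 1 to 2 reproducible peaks with partners in both others: ain-1 joins lin-14 without replicate 4, and lin-66 joins it without replicate 1. For the cut library lists and the left-out replicates no share over all protein-coding genes was computed, so nothing is read from these counts. GAGAGA was found at 25 of 73 entries within 200 bp, where 24.3% of all pooled summits had it. Within 100 bp it was found at 5 of the 24 entries seen in 2 or more libraries. That count has fewer entries under it than the 15 of 73, so the lower number is not a lower share. No share over all pooled entries seen in 2 or more libraries was computed. At 500 bp from a start ain-1 was no longer counted, leaving 2 genes with a reproducible peak. The ce10 reproducible list, matched by signal within 0.01 after seeing the data, also left 2, without lin-14. Depth is unknown, and its part in peaks missing from a library was not tested.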
